A study of Mus musculus with 5 samples.

Results

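The Hoxa9 library of the series is described here through the spacing of its binding sites along the genome and the groups that these sites formed. All 6578 peaks of the Hoxa9 list were used, out of 166982 regions in the 4 peak lists of the series. Chromatin immunoprecipitation followed by sequencing (ChIP-seq) had been made in mouse hematopoietic progenitor cells from bone marrow of the C57B6 strain, depleted of lineage-committed cells and kept in IL3. Every library of the series, the input included, came from cells that carried 2 retroviruses, MIGR1-HA-Hoxa9 and MIGR1-Flag-Meis1, so there was no untransformed group. Hoxa9 was precipitated with an antibody against the HA tag, which reads the retroviral protein and not the cells' own Hoxa9. C/EBPα, H3K4me1 and H3K27me3 were precipitated with antibodies against the protein or the mark. Each list came from 1 library. The Hoxa9 peaks hold 285488 tags in all, which is the tags in called peaks and not the depth of the library. No value below has a replicate error and no test was made. Intervals of shares are 95% exact (Clopper-Pearson) intervals, and all intervals cover counting error over peaks alone. The lists hold no expression values, so the labelled cell type was not checked against markers.

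Hoxa9 is a homeodomain transcription factor of blood stem and progenitor cells that is silenced as myeloid cells mature, and its forced expression with the cofactor Meis1 transforms such progenitors. Meis1, together with Pbx proteins, binds DNA beside Hox proteins and adds to their specificity. Granulocyte and monocyte differentiation is directed by C/EBPα, a DNA-binding protein of the leucine zipper class. Distal enhancers carry H3K4me1 on their nucleosomes, while H3K27me3 is laid down by Polycomb complexes at silenced genes. Enhancers of lineage genes often occur in groups of several bound elements within a stretch of chromosome, which is why the grouping of peaks is of interest.

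A pair of neighbouring Hoxa9 peaks was put in the same chain if their summits, the points of highest signal, lay 12500 bp or less apart. Peaks without such a neighbour are called isolated, and peaks in chains of 2 or more are called clustered. Strength was read from the tags, the sequenced reads that the authors' caller counted in a peak. These distances and tags define the groups, so group sizes are a description. The values nearest the limit were gaps of 12495 and 12499 bp, which joined peaks, and 12513 and 12683 bp, which did not. The gap of 12499 bp lies inside the second longest chain, described below.

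By tags, 3035 peaks (46.1%) held 17 to 29, 2279 (34.6%) held 30 to 59 and 1264 (19.2%) held 60 or more. The list had its floor at 17 tags, where 787 peaks stood, and the limits between tiers ran through a continuous range, with 123 peaks at 29 tags, 119 at 30, 38 at 59 and 47 at 60. The median fold enrichment over the level expected by the caller was 5.13 (quartiles 4.56 to 5.62) in the lowest tier, 7.02 (5.96 to 8.48) in the middle and 12.27 (9.63 to 15.65) in the highest. Peaks also grew wider with tags, with median widths of 461, 740 and 1034 bp. Strong peaks had nearer neighbours. The median distance from a peak to the nearest other Hoxa9 summit was 51392 bp in the lowest tier, 35332 bp in the middle and 27574 bp in the highest, with wide quartiles (13860 to 164618, 10120 to 112359 and 6862 to 92229 bp). The share of clustered peaks was 23.7% (22.1 to 25.2) at 17 to 29 tags, 29.2% (27.4 to 31.1) at 30 to 59 and 35.4% (32.7 to 38.1) at 60 or more. Chains of 3 or more held 6.49%, 8.03% and 10.1% of the 3 tiers. When each tier was chained by itself, 11.8%, 13.6% and 13.1% of its peaks were clustered. The strongest tier thus had as large a share of neighbours of its own kind as the weakest, which has more peaks.

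Hoxa9 sites were unevenly spaced. The 6558 gaps between neighbouring summits had a mean of 388303 bp and a median of 109518 bp, and their quartiles were 27433 and 371060 bp. The mean was thus drawn up by long empty stretches, and 681 gaps (10.4%) were longer than 1 Mb. At the other end, 1024 gaps (15.6%) were 12500 bp or less, 456 of them at 1 to 5 kb and 74 within 1 kb. The closest pair lay on chromosome 12 (mm9), where a peak of 44 tags from 86797849 to 86798646 was followed by one of 21 tags from 86798653 to 86799096, with summits 287 bp apart. Neither peak met C/EBPα. In 30 pairs the edges of the peaks were under 100 bp apart, and the smallest such distance was 2 bp. The longest gap, 11255779 bp, lay on chromosome X between a peak of 17 tags at 22182924 to 22183352 and one of 47 tags at 33438532 to 33439321.

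The C/EBPα list is the one most like it and has 26446 peaks, so it was read both whole and cut to its 6578 highest scores. The cut list had a mean gap of 387953 bp and a median of 102488 bp, close to those of Hoxa9. Hoxa9 and the cut list differed at the shortest range. Gaps of 1 kb or less made up 1.13% of Hoxa9 gaps (74) and 0.153% (10) in the cut C/EBPα list. In the whole C/EBPα list such gaps made up 2.26% (596), more than for Hoxa9. At 1 to 5 kb the shares of Hoxa9 and the cut list were 6.95% and 6.04%, and at 5000 to 12500 bp 7.53% and 7.2%. Very long gaps, over 1 Mb, were 10.4% for Hoxa9 and 9.35% for the cut list. The cut list holds strong peaks with at least 47 tags, while the Hoxa9 list goes down to its own floor, so the lists are matched in number and not in strength. In the whole C/EBPα list the median gap was 24668 bp.

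**Figure D1:**
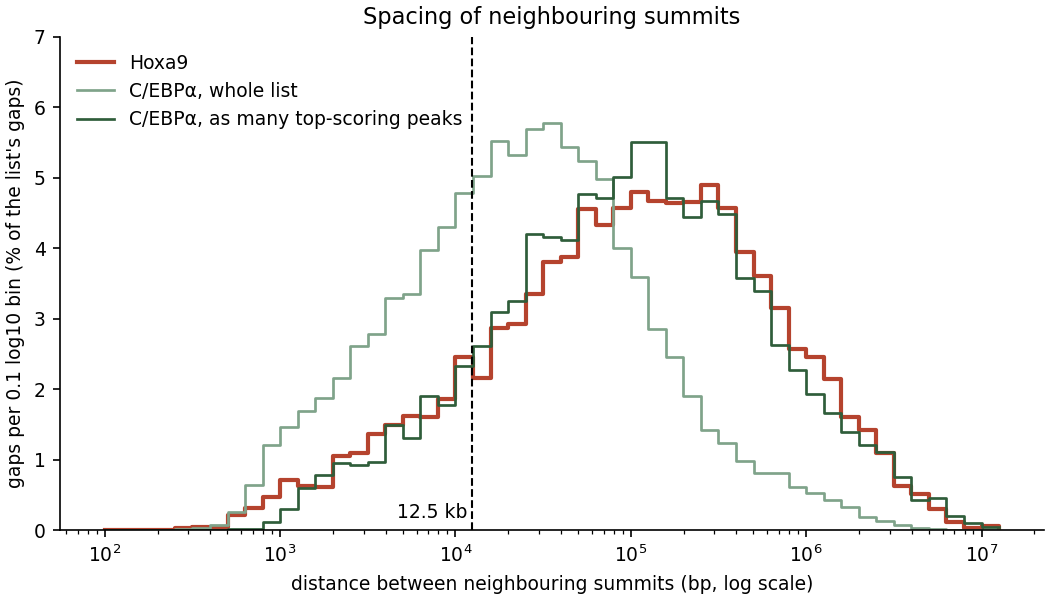
Distance between neighbouring summits (log scale, horizontal) against the share of each list's gaps per bin of 0.1 log10 units (vertical), for Hoxa9, the whole C/EBPα list and the 6578 highest scoring C/EBPα peaks. The Hoxa9 and cut C/EBPα curves lie close together around their medians of 109518 and 102488 bp, and the dashed line marks 12500 bp, left of which 15.6% of the Hoxa9 gaps fall.

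Most Hoxa9 peaks stood alone. Of the 6578 peaks, 4747 (72.2%, 71.1 to 73.2) were isolated, 1324 (20.1%, 19.2 to 21.1) lay in 662 chains of 2, and 507 (7.71%, 7.07 to 8.38) lay in 145 chains of 3 or more. Large chains were few. There were 103 chains of 3, 26 of 4, 9 of 5, 3 of 6, 2 of 7, 1 of 8 and 1 of 9. The cut C/EBPα list gave 24.4% clustered peaks (23.4 to 25.5) against 27.8% (26.7 to 28.9) for Hoxa9, 117 chains of 3 or more against 145, and a longest chain of 6 against 9. The whole C/EBPα list, with its denser calls, gave 54.4% clustered peaks and 2097 chains of 3 or more. Chains of 2 spanned a median of 5002 bp from summit to summit (quartiles 2542 to 8476). Chains of 3 or more spanned a median of 12431 bp (7437 to 15943) and at most 47838 bp.

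Clustering was seen on all 20 chromosomes with peaks. The share of clustered peaks ran from 19.5% on chromosome 17 (46 of 236) to 36.6% on chromosome 16 (101 of 276), with a median of 26.9%. Chromosomes 18 and 11 followed chromosome 16, with 34.8% and 33.6%. Peak density did not order these shares closely (Spearman's rho = 0.290 over 20 chromosomes, given as a description). Chromosome 19, for example, had 3.54 peaks per Mb and 26.2% clustered, and chromosome 18 had 2.33 per Mb. Chromosome X carried 0.805 peaks per Mb, had 28 of 131 peaks in chains of 2 and held no chain of 3 or more.

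Clustered peaks were somewhat stronger than isolated ones. The median tag count was 30 (quartiles 20 to 48) in isolated peaks, 36 (23 to 58) in chains of 2 and 35 (22 to 59.5) in chains of 3 or more. The quartiles overlap widely. Median fold enrichments were 6, 6.42 and 6.44, and median widths 631, 702.5 and 690 bp. From the lowest to the highest tag tier, C/EBPα overlapped 41.3%, 64.5% and 80.6% of peaks and H3K4me1 68.5%, 93.0% and 96.9%, so the overlaps below are also given within the tiers.

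H3K4me1, the enhancer mark, was at more clustered than isolated peaks, and the difference sat mainly among weak peaks. A region of the mark overlapped 78.5% of isolated peaks (77.3 to 79.7), 91.8% of peaks in chains of 2 (90.2 to 93.3) and 94.5% of peaks in chains of 3 or more (92.1 to 96.3). Among peaks of 17 to 29 tags the shares were 63.1% (61.0 to 65.0), 85% (81.7 to 88.0) and 88.8% (83.6 to 92.9). Among peaks of 30 to 59 tags they were 92.0%, 94.6% and 97.3%, and among peaks of 60 or more tags 95.8%, 98.8% and 99.2%. In the strong tiers the shares were near their ceiling of 100%, which leaves little room for a difference. Averaged over the tiers, clustered peaks exceeded isolated ones by 12.4 percentage points, against 14.0 without regard to strength. The summit itself lay inside a region of the mark less often, at 65.4% of isolated peaks, 75.5% in chains of 2 and 81.1% in chains of 3 or more. By this stricter measure isolated peaks and chains of 2 were alike in the highest tier, at 74.8% and 74.4%, and peaks of 60 or more tags were no longer marked more often than those of 30 to 59, of which 76.4% and 77.2% had the summit inside.

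The windows around clustered peaks held more of the mark as well. In a window of 12500 bp to either side of each summit, H3K4me1 regions covered a median of 17.4% around isolated peaks, 36.5% in chains of 2 and 53.0% in chains of 3 or more. The same order held within each tier, from 12.1% to 48.8% at 17 to 29 tags and from 25.1% to 61.3% at 60 or more. Members of 1 chain share much of their windows and are not independent. The window of a clustered peak also holds by rule a further Hoxa9 peak, whose own H3K4me1 region counts too. The part of such neighbours in the greater cover was not tested. The regions that held the summits were wider too, with a median of 2206 bp at isolated peaks (quartiles 1345 to 3428), 2809 bp in chains of 2 (1693 to 4753) and 2949 bp in chains of 3 or more (1680 to 5263). These widths were taken once per summit, so a region that held several summits of a chain counted for each. The part of region width in the greater cover was not tested. Neighbouring peaks could lie in the same region. This became rarer with distance. Both summits lay in 1 region in 36 of 74 pairs within 1 kb, 139 of 456 pairs at 1 to 5 kb and 9 of 494 pairs at 5000 to 12500 bp. All summits of the chain lay in 1 region in 112 of 662 chains of 2 (16.9%) and 5 of 145 chains of 3 or more (3.45%).

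Weak clustered peaks overlapped the mark at similar shares with and without a strong peak in the chain. Of the 718 clustered peaks with 17 to 29 tags, 212 lay in a chain with a peak of 60 or more tags, and H3K4me1 overlapped 87.7% of these (82.6 to 91.8). In chains without such a peak it overlapped 85.4% of 506 (82.0 to 88.3), and in chains made of weak peaks alone 85.1% of 268 (80.2 to 89.1). The 268 peaks are part of the 506, so these groups are not separate. The interval of the 212 peaks overlaps the others, and all 3 intervals lie above the 63.1% of isolated weak peaks. Overlap of the same 3 groups with C/EBPα ran alike, at 48.6% (41.7 to 55.5), 47.8% (43.4 to 52.3) and 51.5% (45.3 to 57.6). For isolated weak peaks it was 39.2% (37.2 to 41.2). Median H3K4me1 cover within 12500 bp of the summit was 47.9%, 32.2% and 31.0% in the 3 groups and 12.1% at isolated weak peaks. Cover was thus greater with a strong peak in the chain, and the part of that peak's own region was not tested.

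Direct overlap with C/EBPα was also more frequent at clustered peaks. A C/EBPα peak overlapped 54.3% of isolated peaks (52.9 to 55.7), 63.5% of peaks in chains of 2 (60.9 to 66.1) and 63.7% of peaks in chains of 3 or more (59.3 to 67.9). Chains of 2 and of 3 or more had nearly the same share. Within tiers the difference narrowed as peaks grew stronger. Clustered and isolated peaks stood at 48.1% and 39.2% at 17 to 29 tags, 68.0% (64.3 to 71.5) and 63.0% (60.6 to 65.4) at 30 to 59, and 81.9% (78.0 to 85.3) and 79.9% (77.0 to 82.6) at 60 or more. In the middle and the strongest tier the intervals overlap, and a difference there was not tested. A C/EBPα summit within 12500 bp, whether or not it met the peak, was found at 92.1% of clustered and 61.4% of isolated peaks in the lowest tier, 95.2% and 80.7% in the middle, and 98.4% and 89.6% in the highest. A clustered peak has by rule a Hoxa9 neighbour in this window, whose C/EBPα peak counts too. With C/EBPα peaks that overlap no Hoxa9 peak alone, the shares were 58.5% and 41.0% in the lowest tier, 58.4% and 51.2% in the middle, and 61.3% and 53.4% in the highest. At shared peaks the C/EBPα signal itself was similar across classes, with median C/EBPα fold enrichments of 11.61, 12.01 and 12.87 and broadly overlapping quartiles (7.10 to 19.49, 7.41 to 20.97 and 6.73 to 24.16). In the highest tier the medians were 13.99, 13.49 and 15.55. The summits of both factors also lay equally close, with median offsets of 73, 71 and 77 bp.

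**Figure D2:**
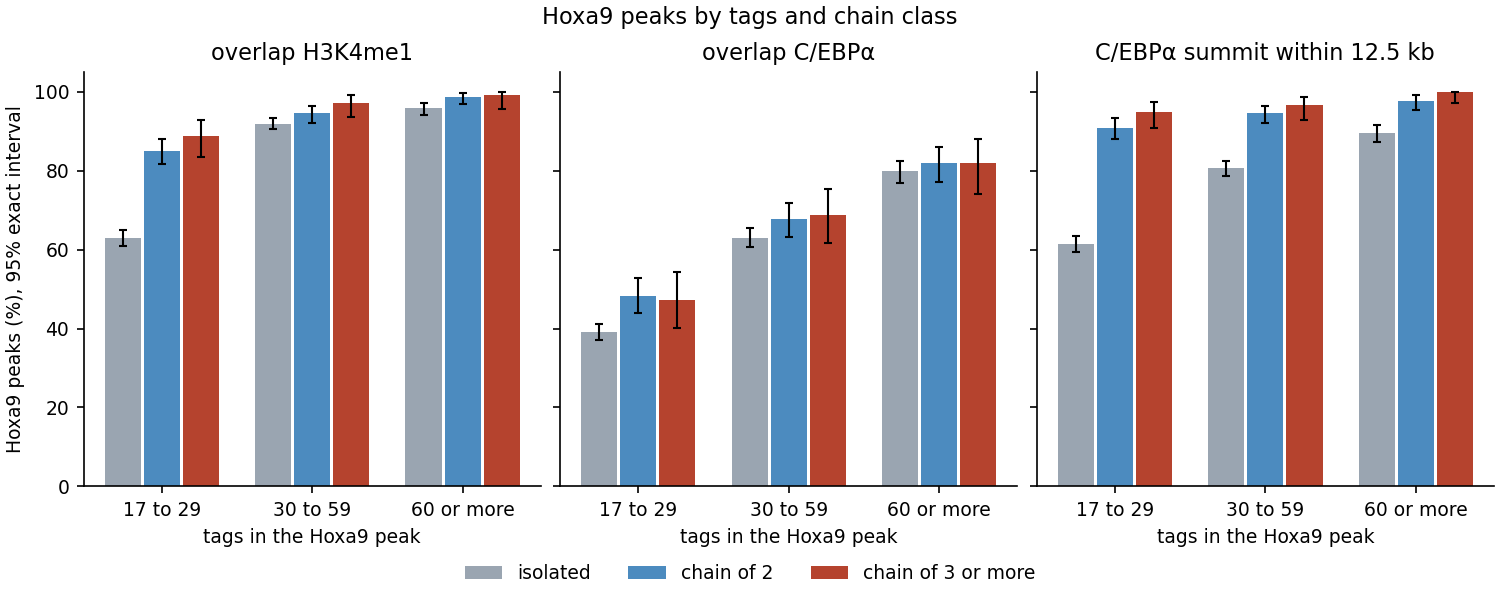
Share of Hoxa9 peaks (vertical, percent, with 95% exact intervals) that overlapped H3K4me1, overlapped C/EBPα or had a C/EBPα summit within 12500 bp, by tags (horizontal) and chain class (colours). In peaks of 17 to 29 tags H3K4me1 rose from 63.1% of isolated peaks to 88.8% in chains of 3 or more, while in peaks of 60 or more tags the C/EBPα overlap stood at 79.9% and 81.9% in the same classes.

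Isolation was a matter of degree. With peaks grouped by the distance to the nearest other Hoxa9 summit, H3K4me1 overlapped 92.6% at 12500 bp or less, 86.3% at 12500 bp to 50 kb, 78.8% at 50 to 250 kb, 65.6% at 250 kb to 1 Mb and 44.3% (35.3 to 53.5) beyond 1 Mb. Lonelier peaks were also weaker, with median tags of 36, 33, 30, 26 and 22 in the same order. Within the lowest tier alone, where the median tags ran between 19 and 21, the share still fell from 86.1% (83.3 to 88.5) through 74.7%, 63.4% and 48.1% to 28.9% (19.5 to 39.9). In the middle tier it fell from 95.4% to 84.5% at 250 kb to 1 Mb, and in the highest it stayed between 95.7% and 98.9% up to 1 Mb. Beyond 1 Mb the middle and highest tiers had 24 and 15 peaks, too few to place the share closely (75%, 53.3 to 90.2, and 80%, 51.9 to 95.7).

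C/EBPα overlap also fell with distance, and among weak peaks by less than the mark. Over all tiers it was 63.6%, 60.3%, 52.8%, 46.4% and 43.4% (34.5 to 52.7) from the nearest to the loneliest peaks. In the lowest tier it went from 48.1% to 36.1% (25.9 to 47.4), with 32.9% (28.5 to 37.5) at 250 kb to 1 Mb. In the highest tier it went from 81.9% (78.0 to 85.3) to 76.5% (67.7 to 83.9) at 250 kb to 1 Mb, and these intervals overlap. The 83 weak peaks more than 1 Mb from another Hoxa9 peak overlapped C/EBPα in 30 cases and H3K4me1 in 24. Both counts are of the same peaks, and their difference was not tested. At each shorter distance the mark was the more frequent of the pair in this tier.

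**Figure D3:**
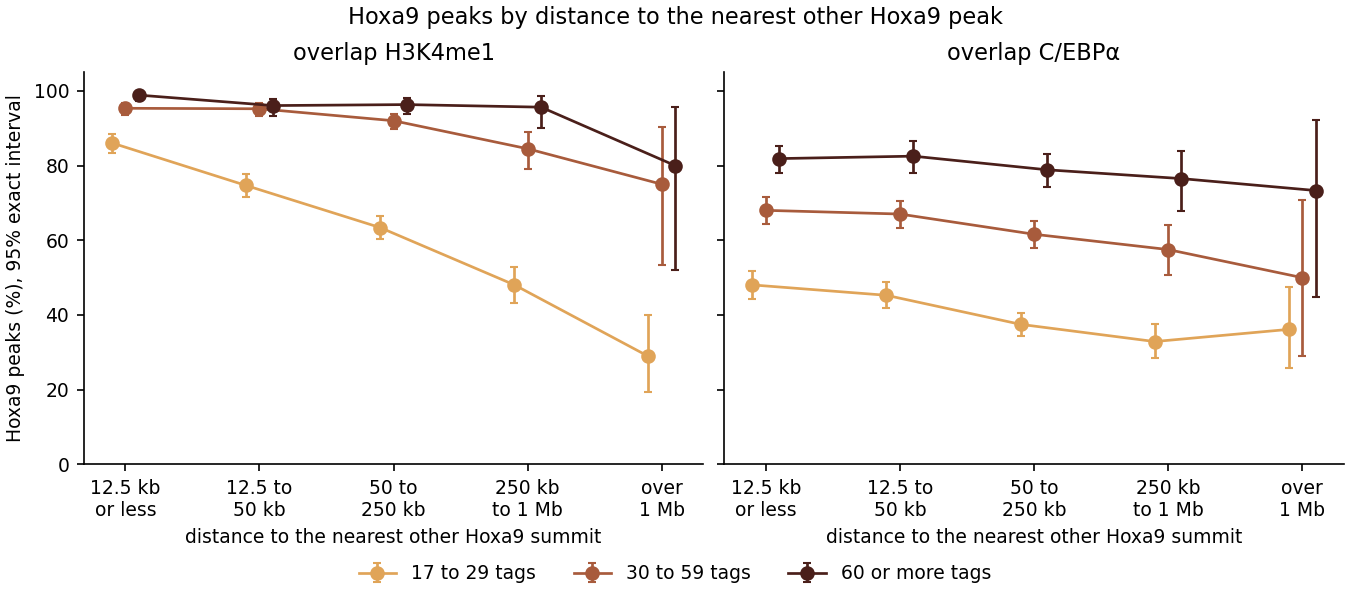
Share of Hoxa9 peaks (vertical, percent, with 95% exact intervals) that overlapped H3K4me1 or C/EBPα, by distance to the nearest other Hoxa9 summit (horizontal) and tags (colours). The line of the weakest peaks falls from 86.1% to 28.9% for H3K4me1, while that of the strongest stays between 95.7% and 98.9% up to 1 Mb.

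How many C/EBPα peaks surrounded each chain was counted from summits within 12500 bp of any Hoxa9 summit of the chain. Among isolated peaks, 72.8% (71.5 to 74.1) had at least 1 C/EBPα summit in reach. Of chains of 2 it was 94.7% (92.7 to 96.3), and of chains of 3 or more 97.2% (93.1 to 99.2). The mean number rose from 1.26 to 2.39 and 3.82, and the median from 1 to 2 and 4. A count of 4 or more was found at 3.81% of isolated peaks, 18.6% of chains of 2 and 51.0% of chains of 3 or more. In all, 7985 C/EBPα summits (30.2% of the list) lay within reach of a chain, and 127 counts were repeats of a summit between 2 chains.

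By construction, longer chains have longer windows and more Hoxa9 peaks that a C/EBPα peak can overlap. Per Hoxa9 peak the number did not rise: it was 1.26 at isolated peaks, 1.19 in chains of 2 and 1.09 in chains of 3 or more. Per 10 kb of window it did, from 0.504 to 0.780 and 1.01. With C/EBPα peaks that overlap a Hoxa9 peak set aside, 0.283, 0.369 and 0.434 summits remained per 10 kb. In the outer flanks alone, 12500 bp to either side of the first and last summit and so of equal length for all chains, such C/EBPα summits were present at 46.6% of isolated peaks (45.1 to 48.0), 56.9% of chains of 2 (53.1 to 60.8) and 60% of chains of 3 or more (51.5 to 68.0). The mean number of such summits in the flanks was 0.708, 0.897 and 1.09. C/EBPα summits outnumbered Hoxa9 peaks at 34.9% of isolated peaks, 44.7% of chains of 2 and 42.1% of chains of 3 or more.

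**Figure D4:**
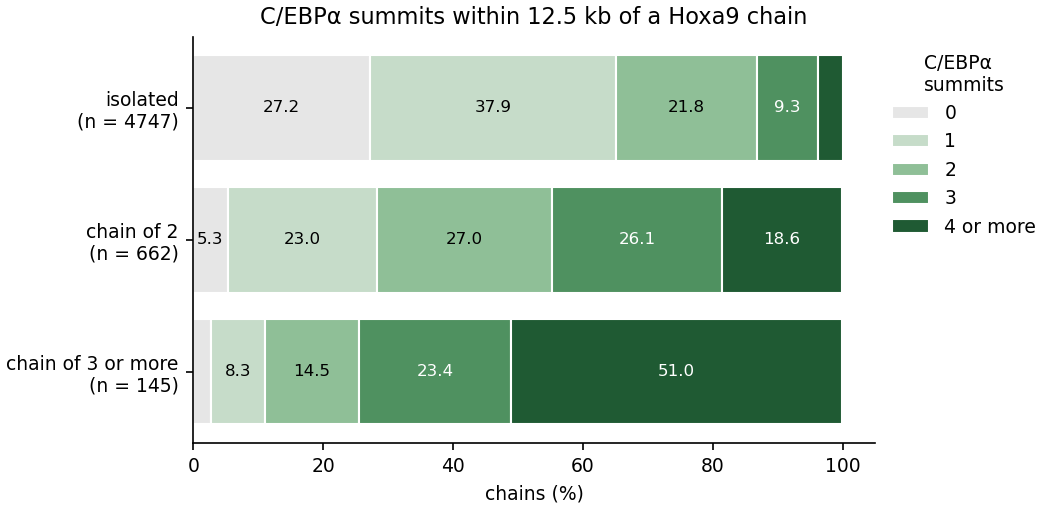
Share of chains (horizontal, percent) with 0, 1, 2, 3 or 4 and more C/EBPα summits within 12500 bp (shades), for isolated Hoxa9 peaks, chains of 2 and chains of 3 or more (vertical). Chains without a C/EBPα summit make up 27.2%, 5.29% and 2.76% of the 3 classes.

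Neighbouring Hoxa9 peaks resembled each other in their C/EBPα overlap at distances up to 1 kb and not at the longer distances within a chain. In pairs of neighbours within 1 kb, the other peak was shared with C/EBPα in 83.5% of cases if the first was shared, and in 26.3% if it was not. Of the 38 pairs with both shared, 28 had 1 C/EBPα peak that overlapped both Hoxa9 peaks. At 1 to 5 kb the shares were 63.8% and 65.9%, and at 5000 to 12500 bp 60.9% and 65.0%. Farther apart they stayed near each other, at 61.8% and 60.9% for 12500 bp to 50 kb and 56.9% and 55.9% for 50 to 250 kb. Among the 456 pairs at 1 to 5 kb, 188 had C/EBPα at both peaks, 213 at 1 of them and 55 at neither. Pairs with C/EBPα at 1 peak made up 46.7% at this distance and 48.8% at 5000 to 12500 bp, close to the 46.9% to 51.3% of neighbours farther apart. Both neighbours overlapped H3K4me1 in 83.8% of pairs within 1 kb, 90.1% at 1 to 5 kb, 86.0% at 5000 to 12500 bp, 77.5% at 12500 bp to 50 kb and 46.3% beyond 1 Mb. These shares move with how often single peaks were marked at each distance, and resemblance between neighbours in this mark was not tested.

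Most chains of 3 or more were mixed in C/EBPα, and most chains had H3K4me1 at every peak. Of 662 chains of 2, 268 (40.5%) had C/EBPα at both peaks, 305 (46.1%) at 1 and 89 (13.4%) at neither. Of 145 chains of 3 or more, 37 (25.5%) had it at every peak, 102 (70.3%) at some and 6 (4.14%) at none. H3K4me1 overlapped every peak in 571 chains of 2 (86.3%) and in 120 chains of 3 or more (82.8%). It overlapped none in 17 chains of 2, and every chain of 3 or more had at least 1 marked peak. Over single peaks of the 2 classes, C/EBPα overlapped 63.5% and 63.7%, and H3K4me1 91.8% and 94.5%. Such shares set how often members of a chain differ, and a longer chain has more members that can differ. Whether chains were more mixed or more uniform than these shares give was not tested.

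Within a chain strong and weak peaks stood side by side. The strongest peak of a chain of 3 or more had a median of 74 tags and the weakest a median of 20, and the median ratio between them was 3.24. In chains of 2 the medians were 51 and 25 and the median ratio 1.67. Neighbours at 1000 to 12500 bp were no closer in strength than distant ones: the stronger had at least 3 times the tags of the weaker in 20.6% of pairs at 1 to 5 kb, 22.3% at 5000 to 12500 bp and 18.8% beyond 1 Mb. Within 1 kb it was 8.11% (6 of 74 pairs). A peak of 60 or more tags was present in 90 chains of 3 or more (62.1%) and in 269 chains of 2 (40.6%), and 51 chains of 2 held such peaks alone. Such peaks numbered 127 of the 507 in chains of 3 or more and 320 of the 1324 in chains of 2. Longer chains have more members from which a strong or a weak one can come. The part of chain length in these shares and in the ratios above was not tested. C/EBPα overlapped the strongest member more often than the weakest, in 77.2% (69.5 to 83.8) and 53.1% (44.6 to 61.4) of chains of 3 or more, and in 74.3% (70.8 to 77.6) and 52.7% (48.8 to 56.6) of chains of 2. H3K4me1 overlapped 97.2% of the strongest and 89.0% of the weakest members of chains of 3 or more. These members were picked by tags, and both overlaps rose with tags over all clustered peaks. From the lowest to the highest tier, C/EBPα overlapped 48.1%, 68.0% and 81.9% of clustered peaks, and H3K4me1 86.1%, 95.35% and 98.9%. A difference beyond that of strength was not tested.

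H3K27me3, the Polycomb mark, was scarce at Hoxa9 peaks and scarcer at clustered ones. It overlapped 86 of 4747 isolated peaks (1.81%, 1.45 to 2.23), 11 of 1324 peaks in chains of 2 (0.831%, 0.415 to 1.48) and 1 of 507 in chains of 3 or more (0.197%, 0.00499 to 1.09). Shares were alike across strength, with 1.48%, 1.49% and 1.5% in the 3 tiers. Clustered and isolated peaks stood at 0.696% and 1.73% at 17 to 29 tags, 0.751% and 1.8% at 30 to 59, and 0.447% and 2.08% at 60 or more. The clustered values rest on 5, 5 and 2 peaks, and within each tier the intervals of the classes overlap. The mark covered a mean of 3.44% of the 25 kb windows around isolated peaks, 2.42% in chains of 2 and 1.03% in chains of 3 or more. By distance to the nearest Hoxa9 peak the share was 0.655% at 12500 bp or less, 1.13% at 12500 bp to 50 kb, 2.45% (1.83 to 3.21) at 50 to 250 kb and 1.92% (1.08 to 3.14) at 250 kb to 1 Mb. Beyond 1 Mb it was 0 of 122 peaks (0 to 2.98), so the share did not grow steadily with isolation.

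The single chain of 3 or more that met H3K27me3 held 4 peaks on chromosome 14 from 99671673 to 99680981. Its first peak, of 21 tags, overlapped the Polycomb mark and neither H3K4me1 nor C/EBPα. The other 3, of 62, 25 and 166 tags, overlapped H3K4me1, and the last pair also had C/EBPα summits 54 and 87 bp away. The first and the next summit were 3233 bp apart.

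The longest chain lay on chromosome 18 from 55059819 to 55108589, with 9 Hoxa9 peaks over 47.84 kb. Its peaks held 44, 102, 125, 75, 40, 17, 17, 76 and 86 tags in order along the chromosome, so that its stronger peaks stood towards both ends and the weakest between them. C/EBPα overlapped 5 of them and H3K4me1 all 9. The peak of 102 tags, with the chain's highest fold enrichment of 21.25, had its nearest C/EBPα summit at a distance of 2089 bp, while the next peaks along, of 125 and 75 tags, had C/EBPα summits 14 and 2 bp away. Within 12500 bp of the chain lay 13 C/EBPα summits, 8 of them at peaks without a Hoxa9 call.

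The next chain, on chromosome 7 from 133773206 to 133811357, showed a different order. It held 8 peaks of 28, 76, 82, 35, 111, 132, 96 and 19 tags, all overlapped by H3K4me1, which covered 77.3% of its window. The first 5 had no C/EBPα overlap and stood 4397 to 7097 bp away from any C/EBPα summit, while the last 3 had one 129, 29 and 306 bp away. This chain depends on the limit, since a gap of 12499 bp joins its first pair of peaks to the rest.

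A pair of chains had 7 peaks each. The one on chromosome 16 from 49770235 to 49807872 was led by a single strong peak of 184 tags and 24.56-fold enrichment, beside others of 19 to 53 tags, and had 10 C/EBPα summits in reach. The one on chromosome 2 from 84850132 to 84876950 was even in strength, with 39 to 96 tags per peak. C/EBPα overlapped 6 of its 7 peaks, with summits 1 to 198 bp away.

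**Figure D5:**
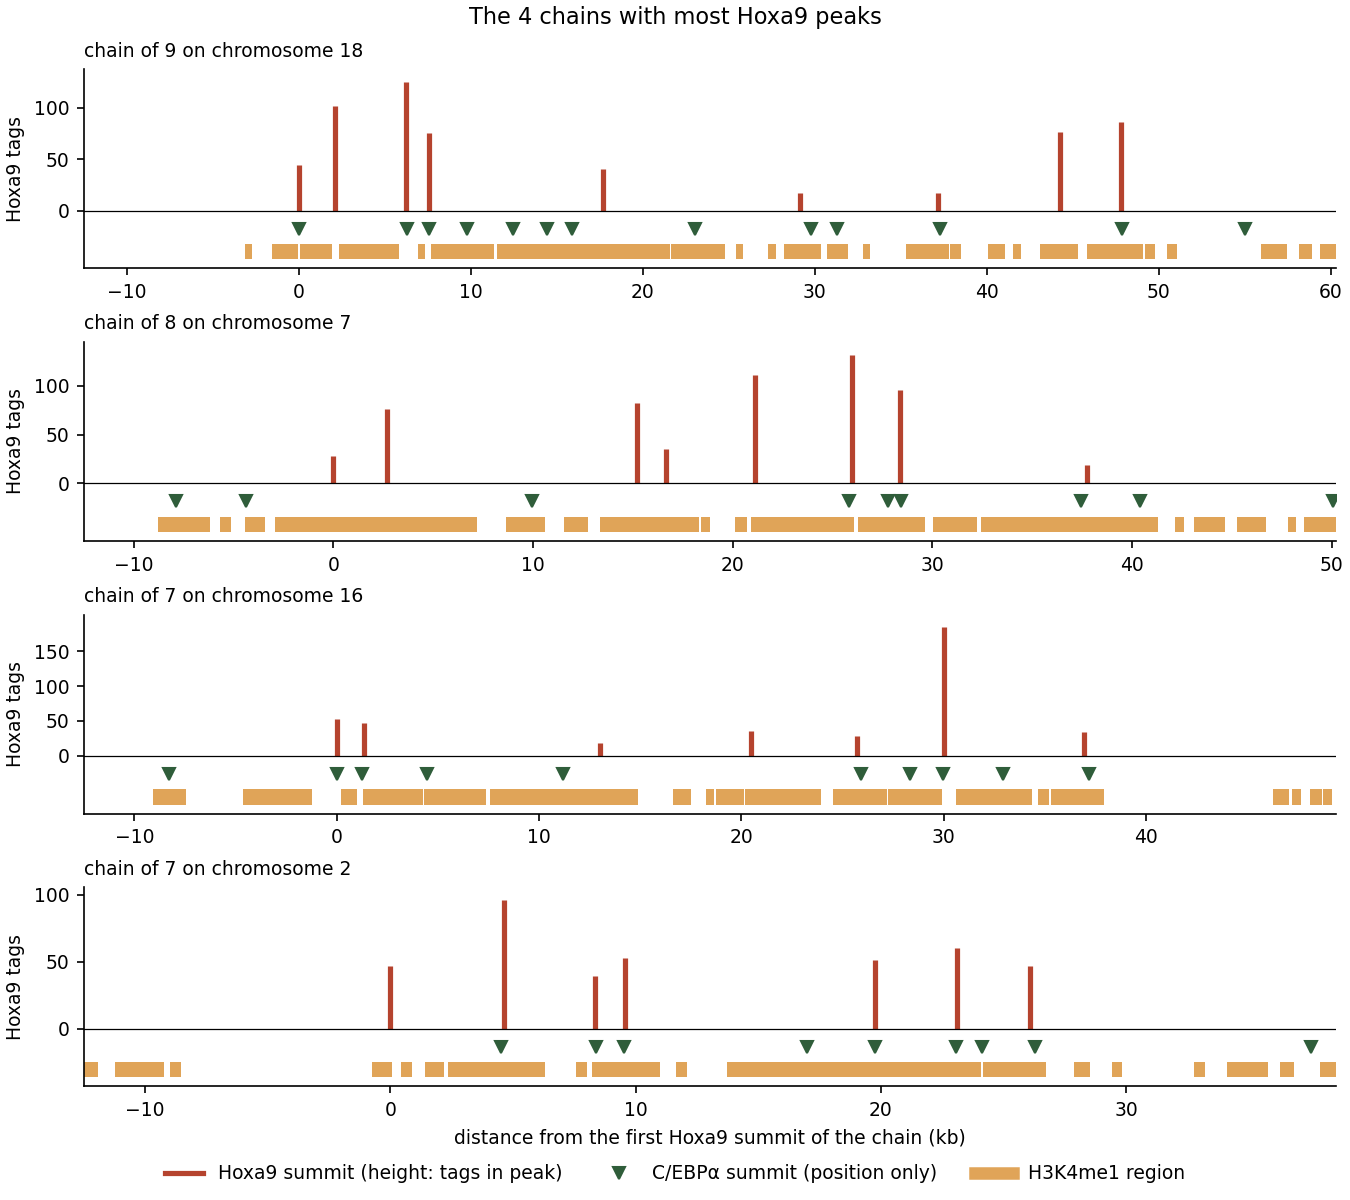
The 4 chains with most Hoxa9 peaks, with distance from the first Hoxa9 summit (horizontal, kb), tags of each Hoxa9 peak (vertical lines), C/EBPα summits (triangles, position only) and H3K4me1 regions (bars). On chromosome 7 the first 5 of 8 peaks lie 4397 bp or more from any C/EBPα summit, and on chromosome 2 C/EBPα overlaps 6 of 7 peaks.

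Of the chains of 6, one lay on chromosome 11 from 86400150 to 86428085. Another was on chromosome 6 (119327492 to 119349803) and the last on chromosome 15 (59242826 to 59262536). The first held a peak of 246 tags and 9 C/EBPα summits in reach, and H3K4me1 missed its first and last peaks. The chain on chromosome 15 was made of weak and middling peaks, with 22 to 43 tags and fold enrichments of at most 6.86, yet H3K4me1 overlapped all 6. Of the chains of 5, the strongest by summed tags lay on chromosome 16 from 45018678 to 45039371, where a peak of 335 tags and 36.51-fold enrichment stood among 5 peaks that all overlapped C/EBPα. The chain of 5 on chromosome 5 from 97380720 to 97405936 had a peak of 197 tags and C/EBPα at 1 of its 5 peaks. The third, on chromosome 6 from 48723786 to 48752261, had C/EBPα at 3 of 5. Over all 16 chains of 5 or more, 12 had H3K4me1 at every peak, 1 had C/EBPα at every peak and 1 had it at none.

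Chains without any C/EBPα summit in reach numbered 39, of which 35 were chains of 2 and 4 were longer. The strongest by summed tags lay on chromosome 10 from 19852415 to 19856612, with peaks of 93 and 82 tags 2843 bp apart, both in H3K4me1 regions and 20507 and 17664 bp from C/EBPα. On chromosome 9 from 40237128 to 40244169, peaks of 114 and 30 tags lay 21263 bp or more from a C/EBPα summit. A chain of 2 on chromosome 12 from 12568740 to 12578098 combined a peak of 119 tags with one of 19. The densest of these chains lay on chromosome 8 from 55550188 to 55555928, where 5 peaks of 36, 19, 22, 17 and 44 tags stood within 4851 bp. All 5 overlapped H3K4me1, and no C/EBPα summit came nearer than 45007 bp. On chromosome 4 from 135818392 to 135825502, a peak of 21 tags in H3K27me3 stood 6322 bp from one of 104 tags in H3K4me1. Among these chains, the one on chromosome 10 was made of strong peaks alone. Those on chromosomes 9, 12 and 4 each joined a strong peak to a weaker one, and the chain on chromosome 8 held at most 44 tags per peak. On chromosome 12 the nearest C/EBPα summit lay 14349 bp away, not far beyond the window. H3K4me1 covered 35.7% and 40.8% of the windows on chromosomes 10 and 9. On chromosomes 12, 8 and 4 it covered 14.9%, 10.4% and 9.16%.

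Most strong peaks had no close neighbour. Of the 1264 peaks with 60 or more tags, 817 (64.6%) were isolated. The isolated peaks with most tags fell into 2 kinds. One kind had high enrichment: on chromosome 2 from 172996505 to 172998484 (447 tags, 54.65-fold), on chromosome 10 from 17894647 to 17897364 (422 tags) and from 20802609 to 20804263 (367 tags, 49.46-fold), on chromosome 19 from 15910831 to 15913115 (365 tags, 39.46-fold) and on chromosome 3 from 141994451 to 141996184 (297 tags, 28.07-fold). Their nearest Hoxa9 neighbours lay between 16840 and 245416 bp away. Each overlapped C/EBPα and H3K4me1, which covered 20.9% to 57.0% of the window around them.

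The other kind had many tags in a narrow peak and little enrichment. These 5 peaks lay at 35112541 to 35113428 on chromosome 9 (1346 tags), 166526871 to 166527605 on X (896), 3109768 to 3110440 on chromosome 12 (805), 103598885 to 103599387 on chromosome 6 (673) and 70039056 to 70039575 on chromosome 4 (347). They held 0.667 to 1.52 tags per bp, against at most 0.258 in the other 6573 peaks, and their fold enrichments were 2.08 to 2.81. C/EBPα and H3K4me1 calls at the same places were equally dense, with 0.536 to 1.59 and 0.593 to 2.08 tags per bp, and C/EBPα summits lay 0 to 18 bp away. H3K4me1 covered 1.82% to 2.95% of the windows around them. All 5 counted as isolated, and without them 27.9% of peaks were clustered and 145 chains of 3 or more were found.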

How the data were processed

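CASAVA 1.8.2, BWA 0.6.2, MACS 1.4 and mouse build mm9 stand in the submitters' processing notes. How the caller was set, and against which control, is not given in the sources used here. Tags, per the file headers, are counts per peak and were deposited as whole numbers without normalization. The score, deposited as 10 times −log10 of the p-value, was used to rank peaks. Fold enrichment was deposited as a linear ratio and the false discovery rate as a percent. Library totals were not used here. Called peaks had at least 17 (Hoxa9), 15 (C/EBPα), 14 (H3K4me1) and 20 (H3K27me3) tags, so weaker sites are missing. The input library was not analysed here.

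Summits were taken as start + summit − 1. Chains joined neighbours up to 12500 bp apart, and overlap meant at least 1 common bp. Python 3.11.15, numpy 2.4.6, pandas 2.3.3 and scipy 1.17.1 were used. On 20 simulated lists the code put 100% of peaks in chains of the true size. Alternatives changed gaps, windows, overlap, peaks kept and chromosomes.

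Named were the 10 chains with most peaks, the 10 isolated peaks with most tags, the 5 chains with most C/EBPα summits, the 5 strongest of 2 or more without one, chains of 3 or more with H3K27me3 (up to 3) and the 2 gaps on either side of 12500 bp. Closest and farthest pairs were named after their values were seen. The members and groupings were chosen with earlier results of these data known. Genes, motifs and sequences at the peaks, which had been planned, were not analysed here, because the annotation used was of GRCm38.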

Additional observations from a re-analysis of the deposited data

How the results depend on the processing

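Each of 7 results was recomputed under alternatives, 48 in all: 23 stayed within the interval of the value (or within 1.5 times a count) and 25 moved it. Only the differences between clustered and isolated peaks and the ratio of median tags have a direction, which 0 of their alternatives turned. The clustered share, the number of chains and the median spacing have none. With gaps of up to 5 kb and 25 kb, the share of clustered peaks (27.8%) became 15.0% and 39.8%, and the chains of 3 or more (145) became 58 and 301. The difference between clustered and isolated peaks in the share with a C/EBPα summit in reach (22.0 percentage points) became 18.6 and 19.7.

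Keeping the upper 50% of peaks by score (3289) or those enriched 10-fold or more (1099) gave 21.2% and 9.92% clustered peaks, 36 and 4 chains of 3 or more, and median gaps of 228805 and 1071727 bp. The same lists gave differences of 12.2 and 5.93 points for C/EBPα and 2.55 and 2.42 points for H3K4me1 (14.0 with all peaks), the last with an interval of -1.80 to 4.01. The ratio of median tags (1.20) became 1.08 and 1.08, the last with an interval of 0.966 to 1.20 that includes 1, and 1.13 with gaps up to 5 kb. For H3K27me3 the difference (-1.16 points) was -0.760 (-1.54 to 0.340) and -2.12 (-3.22 to 1.3), so that both intervals include 0. H3K4me1 differed by 11.7 points if the summit had to lie in the region. Intervals of differences were put together from the exact limits of both shares, and that of the tag ratio from limits of both medians. Such intervals are approximate.

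The C/EBPα difference was 19.4 and 15.5 points with windows of 5 and 25 kb, and 28.7 points with the cut C/EBPα list. Counting C/EBPα peaks without Hoxa9 alone gave 12.6 points, and the mean over tag tiers gave 20.9. For C/EBPα both alternatives were chosen after seeing the data, while for H3K4me1 and H3K27me3 the mean over tag tiers had been planned. No analysis paired by library was possible because each group has 1 library. The tag floor and the lack of replicates limit every value.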

Other observations

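Chains formed from C/EBPα peaks by the same rule met Hoxa9 more often the longer they were. A Hoxa9 peak overlapped 1397 of 12057 isolated C/EBPα peaks (11.6%, 11.0 to 12.2), 942 of 6396 C/EBPα peaks in chains of 2 (14.7%, 13.9 to 15.6) and 1425 of 7993 in chains of 3 or more (17.8%, 17 to 18.7). The C/EBPα peaks grew slightly in strength in the same order, with median tags of 32, 36 and 39, and the part of strength in this rise was not tested.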
